A study of Mus musculus with 9 samples.

Results

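The genes described here encode the Wnt ligands, their receptors and their secreted regulators. They were chosen by gene symbol alone, and 40 protein-coding genes of the 27370 in the deposited table met the rule. These were 13 Wnt ligands, 2 R-spondins, 10 Frizzled receptors, 2 co-receptors (Lrp5 and Lrp6), 2 R-spondin receptors (Lgr4 and Lgr6), 10 secreted inhibitors and the feedback gene Axin2. PolyA RNA was sequenced from sorted mouse stromal cells in 9 libraries, 3 per group, each from 2 pooled mice. The first group holds red pulp fibroblasts (RPF), the reticular stroma of the splenic red pulp, from mice treated with diphtheria toxin. The second holds RPF from untreated mice (steady state), and the third holds fibroblastic reticular cells (FRC) of lymph nodes, also from untreated mice. Every mouse of the 3 groups was 4 months old and carried Wt1CreERT2, RosatdTomato and CD64DTR. The inducible Cre is driven by Wt1 and switches on tdTomato, and RPF were sorted as tdTomato-positive cells and FRC as tdTomato-negative cells. CD64DTR places the toxin receptor under control of CD64, a receptor of macrophages, so that the toxin depletes them. The toxin and the loss of macrophages cannot be told apart in this design, since both control groups went without toxin, and no source used here gives the times of toxin or of Cre induction. In these bulk libraries, fewer cells of a type and less RNA per cell cannot be told apart either.

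Total counts per library ran from 25414645 to 43879806. Levels are TMM-scaled CPM, the counts of a gene brought to a common library total, and levels of different genes are compared as CPM per kilobase of median transcript length. The labels of the sort were checked against marker genes. The spleen factor Tlx1 was at 198 to 251 CPM in depleted RPF, 371 to 434 CPM in steady-state RPF and 0.0682 to 0.388 CPM in FRC. The lymph node chemokine Ccl21a was at 0.179 to 1.24 CPM in depleted RPF, 0.494 to 0.660 CPM in steady-state RPF and 1021 to 1191 CPM in FRC. Pdpn, which encodes the gp38 antigen stained for the sort, was at no more than 0.197 CPM in any RPF library but at 71.1 to 78.4 CPM in FRC.

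Wnt proteins are secreted lipid-modified ligands that bind Frizzled receptors. With Lrp5 or Lrp6 as co-receptor they stabilise beta-catenin, which acts with TCF/LEF factors on target genes such as Axin2, while ligands such as Wnt5a and Wnt11 are best known for beta-catenin-independent signalling. R-spondins bind Lgr receptors and keep Frizzled receptors at the cell surface, so they raise the response to Wnt. Secreted frizzled-related proteins (Sfrp genes and Frzb) and Wif1 bind Wnt ligands outside the cell, and Dkk1, Dkk2 and Dkk4 act on Lrp5 and Lrp6. In lymphoid organs, stromal cells are a main source of such extracellular signals.

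After toxin treatment, edgeR called 8 of the 30 tested genes changed in RPF, or 26.7%, where 21.0% of all genes tested were called. The highest members, Frzb and Fzd1, were not among them in edgeR, although Frzb was called in limma-voom and with the RPF groups alone. The R-spondin receptor gene Lgr6 was 39.0-fold lower in depleted than in steady-state RPF, at 1.92 ± 0.678 CPM against 74.7 ± 14.7 CPM (SD, n = 3 each). The secreted genes Dkk3, Sfrp1 and Rspo1 fell 7.84-fold, 3.26-fold and 11.1-fold, and the receptor gene Fzd8 fell 2.21-fold. In the fit of all 9 libraries, Fzd4 was the sole Frizzled gene that edgeR called higher. It was at 162 ± 49.7 CPM in depleted and 28.5 ± 4.51 CPM in steady-state RPF. Between the tissues, steady-state RPF had far more Lgr6, Frzb, Fzd1 and Sfrp1 than FRC, and far less Wnt11, Rspo1, Sfrp2, Sfrp4, Dkk2 and Fzd10.

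Of the 40 genes, 30 passed the filter on low counts and were tested. In depleted against steady-state RPF, those 8 were called at an edgeR adjusted p under 0.05, out of 15103 genes tested in all. Of these, 2 were higher, where 11.1% of all genes were called higher, and 6 were lower, where 9.96% of all genes were called lower. The share called in either direction was thus close to that of all genes (26.7% and 21.0%). By direction they were less alike, with more members lower than higher, while slightly more of all genes were higher. The median log2 fold change of the 30 was -0.40, and that of all genes -0.09. In steady-state RPF against FRC, 18 of the 30 (60.0%) were called and 25.9% of all genes, with 5 members higher (all genes 11.5%) and 13 lower (all genes 14.4%). The median log2 fold change was -0.70 for the 30 and -0.02 for all genes. Of those 18, 7 were below the filter's cutoff in at least 1 library of the lower group (Lgr6 in FRC, and Dkk2, Sfrp2, Sfrp4, Fzd10, Wnt2b and Wnt9a in steady-state RPF). A gene that passes the filter only where it is high had to differ, so these counts are a description. The last 6 genes passed through FRC alone and were not in the fit made on the RPF groups by themselves, so the depletion calls of Wnt2b and Sfrp4 do not exist there. The comparisons share the steady-state RPF libraries.

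**Figure D1:**
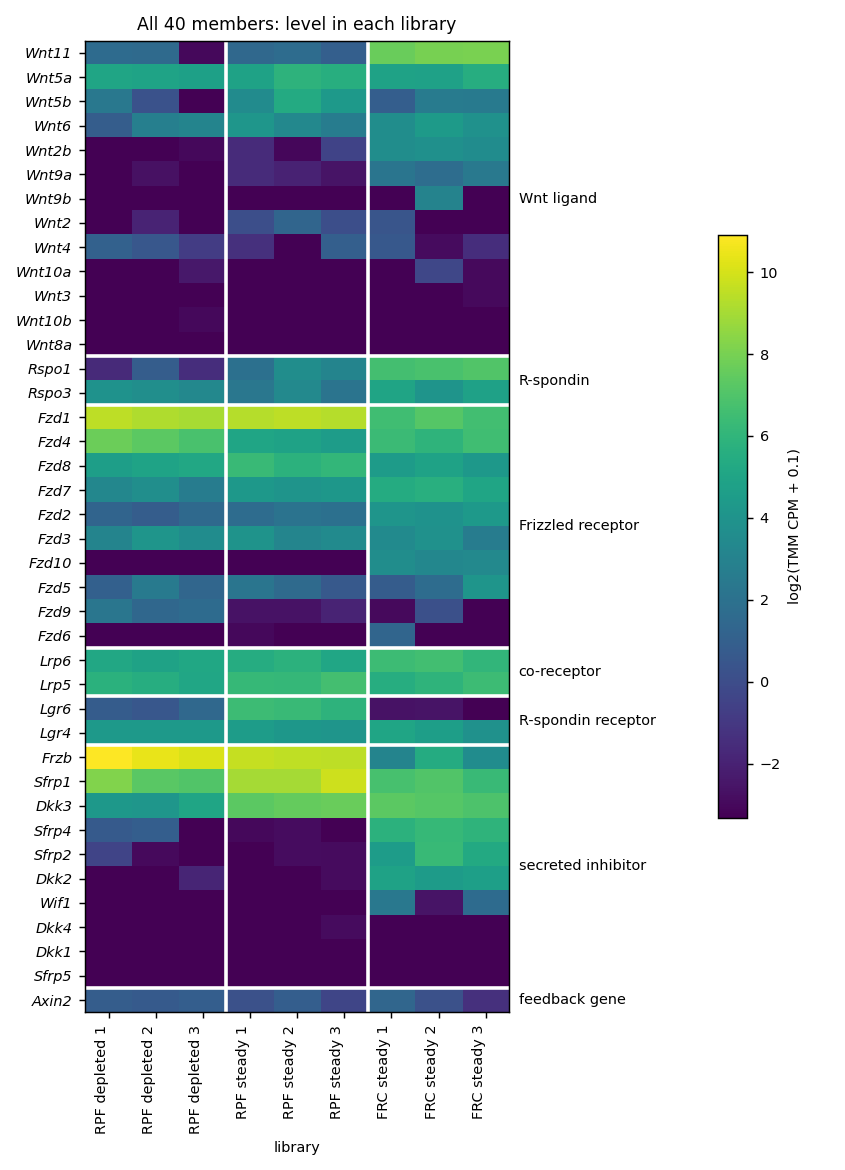
Level of each of the 40 genes in each of the 9 libraries, as log2(TMM CPM + 0.1), with genes grouped by role and libraries by group (RPF depleted, RPF steady, FRC steady). Frzb and Fzd1 are bright in all 6 RPF libraries, Lgr6 is bright in the 3 steady-state RPF libraries, and Wnt11, Rspo1, Sfrp2, Sfrp4 and Dkk2 are bright in the 3 FRC libraries.

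The 10 genes not tested were Wnt3, Wnt8a, Wnt9b, Wnt10a, Wnt10b, Fzd6, Dkk1, Dkk4, Sfrp5 and Wif1. Dkk1, Sfrp5 and Wnt8a had 0 counts in all 9 libraries. Wnt3, Wnt10b and Dkk4 had 1 count each in all. Wif1 had 0 counts in the 6 RPF libraries and 271 in FRC, and Wnt9b had 0 counts in the 6 RPF libraries and 238 in FRC. The Wnt9b counts all came from FRC replicate 2, and those of Wif1 were 165, 2 and 104 in the 3 FRC libraries. Fzd6 had 1 count in steady-state RPF and 79 in FRC, those of FRC all in replicate 1, and Wnt10a had 4 counts in depleted RPF and 22 in FRC, of which 21 came from replicate 2. Some of the genes are neighbours in the genome. Wnt6 and Wnt10a are 6.19 kb apart on chromosome 1, and Wnt9b and Wnt3 are 24.3 kb apart on chromosome 11. Wnt6 was at 16.0 CPM in FRC and its neighbour Wnt10a at 0.249 CPM.

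Promoter sequences are shown for the genes that lead the results, namely Frzb and Fzd1 as the highest members in RPF, Lgr6 as the gene with the largest called fall after depletion, and Fzd4 as the receptor gene that rose. They are the 250 bases before the transcription start from RefSeq, on GRCm38.p6, the assembly of mm10. Frzb lies at chr2:80447397-80447646 on the minus strand, Fzd1 at chr5:4758217-4758466 on the minus strand, Lgr6 at chr1:135105277-135105526 on the minus strand and Fzd4 at chr7:89404116-89404365 on the plus strand. Capitals mark the TCF/LEF core CTTTGA and the TATA motif TATAAA, searched on both strands, so that TCAAAG and TTTATA are matches too.
Frzb: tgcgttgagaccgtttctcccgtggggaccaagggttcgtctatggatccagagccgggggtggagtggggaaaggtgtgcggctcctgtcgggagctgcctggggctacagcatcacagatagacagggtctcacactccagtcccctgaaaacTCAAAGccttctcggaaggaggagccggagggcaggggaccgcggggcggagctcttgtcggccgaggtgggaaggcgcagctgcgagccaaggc
Fzd1: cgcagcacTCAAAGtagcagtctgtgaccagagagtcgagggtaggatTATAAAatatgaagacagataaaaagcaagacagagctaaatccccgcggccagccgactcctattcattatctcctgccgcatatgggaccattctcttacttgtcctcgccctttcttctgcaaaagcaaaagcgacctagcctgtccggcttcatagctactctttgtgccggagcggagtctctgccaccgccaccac
Lgr6: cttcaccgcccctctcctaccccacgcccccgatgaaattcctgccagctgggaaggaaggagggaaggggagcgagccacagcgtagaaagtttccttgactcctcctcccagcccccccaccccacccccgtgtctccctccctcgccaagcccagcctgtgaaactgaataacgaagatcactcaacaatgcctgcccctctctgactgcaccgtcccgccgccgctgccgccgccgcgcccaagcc
Fzd4: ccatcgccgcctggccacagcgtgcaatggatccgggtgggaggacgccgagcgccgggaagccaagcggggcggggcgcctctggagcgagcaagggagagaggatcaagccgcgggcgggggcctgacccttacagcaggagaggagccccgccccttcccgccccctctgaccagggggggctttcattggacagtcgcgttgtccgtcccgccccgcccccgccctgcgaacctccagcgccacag
The TCF/LEF core was found in the windows of Frzb and Fzd1, and TATAAA in that of Fzd1. Neither was found in the windows of Lgr6 and Fzd4. RefSeq and the deposited gene span place the start of Frzb differently, and most of its window, with the match, lies inside that span. They differ for Fzd1 too, whose window lies apart from its deposited span, which ends at 4758035. The window of Fzd4 runs slightly into its span, which starts at 89404355. RefSeq gave a window for 26 of the 40 genes, 29 windows in all, and 5 of these (17.2%) held the TCF/LEF core, against 13.8% of all 32851 windows. TATAAA was in 5 of the 29 and in 12.4% of all windows. The members' windows were rich in CG dinucleotides, with a median of 21.0 per window against 6 over all windows. The 2 matched motifs did not overlap each other, and a match is a description of the sequence and not of binding.

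Among the ligands, the Wnt mRNA of RPF was mainly Wnt5a and that of FRC mainly Wnt11. Wnt11, known for beta-catenin-independent signalling, was at 3.10, 2.94 and 0.0223 CPM in depleted RPF, at 2.72, 3.18 and 1.85 CPM in steady-state RPF, and at 200, 249 and 261 CPM in FRC. It was 91.5-fold lower in steady-state RPF than in FRC (log2 fold change -6.50, SE 1.00, edgeR adjusted p = 0.00141), with every RPF library far below every FRC library. Depleted replicate 3 held 1 count of Wnt11, and the depleted and steady-state groups overlapped (log2 fold change -0.38, edgeR adjusted p = 0.817). Per kilobase, Wnt11 was the highest of all 40 genes in FRC, at 148 ± 20.0 CPM per kb, and made up 74.3% to 76.3% of the summed Wnt ligand level in the FRC libraries. Wnt5a made up 76.7% to 81.7% of that sum in depleted RPF and 54.4% to 70.7% in steady-state RPF.

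Wnt5a was at 32.9, 30.3 and 27.0 CPM in depleted RPF, at 28.9, 58.2 and 47.5 CPM in steady-state RPF, and at 28.9, 27.9 and 47.3 CPM in FRC. The groups overlapped, and neither comparison passed the test (log2 fold change -0.58, 95% interval -1.32 to 0.16, edgeR adjusted p = 0.226 for depletion; 0.37, interval -0.37 to 1.11, edgeR adjusted p = 0.427 for RPF against FRC). Wnt6, a ligand known from epithelial development, was at 1.72, 6.88 and 8.32 CPM in depleted RPF, at 17.7, 9.89 and 6.22 CPM in steady-state RPF, and at 12.3, 21.5 and 14.3 CPM in FRC. Its groups overlapped in both comparisons, with edgeR adjusted p values of 0.309 and 0.61. Wnt5b, a close relative of Wnt5a, was at 5.17, 1.08 and 0 CPM in depleted RPF, at 11.5, 40.7 and 20.8 CPM in steady-state RPF, and at 1.79, 5.94 and 5.52 CPM in FRC. Every depleted library lay below every steady-state RPF library, but the spread was wide and the edgeR adjusted p was 0.118, or 0.0149 in DESeq2 and 0.0382 in limma-voom. The steady-state RPF libraries lay above all FRC libraries, at an edgeR adjusted p of 0.229, or 0.0273 with these groups alone in the fit. The span of Wnt5b overlaps that of Fbxl14 on the other strand, and no source used here gives the strand setting of the counting, so the counts of Wnt5b are uncertain.

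Wnt2b and Wnt9a were ligand genes of FRC. Wnt2b was at 0, 0 and 0.0223 CPM in depleted RPF, at 0.234, 0.0197 and 0.628 CPM in steady-state RPF, and at 12.6, 14.0 and 12.0 CPM in FRC. It was 43.7-fold lower in steady-state RPF than in FRC (log2 fold change -5.46, edgeR adjusted p = 0.00974), or by -6.62 on the log2 scale without steady-state RPF replicate 3. In RPF it had 1 count after depletion and 31 counts at steady state, which is 28.3-fold lower (95% counting interval 4.72 to 1153, edgeR adjusted p = 0.039). That call did not hold when any library other than steady-state RPF replicate 2 was left out (edgeR adjusted p of 0.0594 to 0.12), nor in limma-voom (adjusted p = 0.176). Wnt9a was at 0, 0.0540 and 0 CPM in depleted RPF, at 0.234, 0.158 and 0.0662 CPM in steady-state RPF, and at 4.49, 3.24 and 5.25 CPM in FRC. It was 28.3-fold lower in steady-state RPF than in FRC (edgeR adjusted p = 0.0303). The call was lost without any 1 of the 3 steady-state RPF libraries, FRC replicate 1 or FRC replicate 3, at edgeR adjusted p values of 0.0646 to 0.105, and with no filter on low counts (0.07). Wnt2 was at 0, 0.162 and 0 CPM in depleted RPF and at 0.958, 2.43 and 0.959 CPM in steady-state RPF, so that its groups did not overlap. It was not called in edgeR after depletion (adjusted p = 0.227), whereas limma-voom gave an adjusted p of 0.0368. Wnt4 stayed at or below 2.01 CPM in all 9 libraries, and edgeR called neither gene in either comparison.

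**Figure D2:**
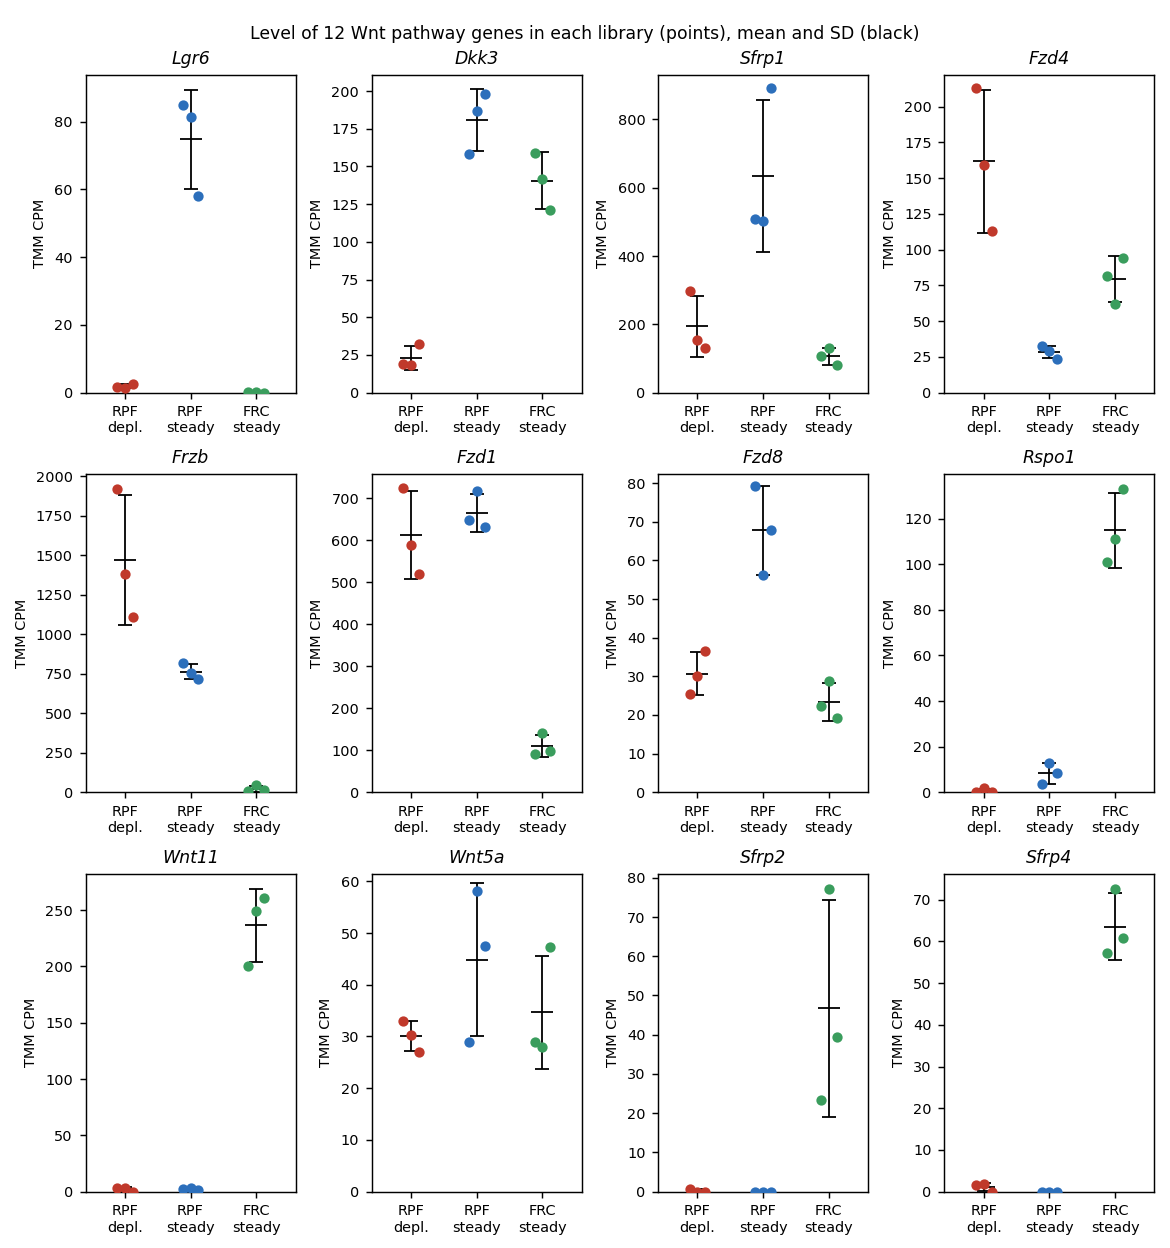
TMM CPM of 12 of the genes in each library (points), with the mean (long bar) and SD (whiskers) of the 3 libraries per group, on linear axes from 0 that differ between panels. Lgr6 lies at 57.9 to 85.0 CPM in steady-state RPF and at no more than 2.68 CPM elsewhere, while Wnt11 lies at 200 to 261 CPM and Rspo1 at 101 to 133 CPM in FRC, above all RPF libraries.

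The R-spondins, which amplify Wnt responses, were most abundant in FRC. Rspo1 was at 0.230, 1.73 and 0.268 CPM in depleted RPF, at 3.66, 12.6 and 8.53 CPM in steady-state RPF, and at 101, 111 and 133 CPM in FRC. The 3 groups did not overlap. It was 11.1-fold lower in depleted than in steady-state RPF (log2 fold change -3.48, SE 0.76, edgeR adjusted p = 0.0112) and 13.9-fold lower in steady-state RPF than in FRC (edgeR adjusted p = 0.00492). Without depleted replicate 2, the highest of its group, the log2 fold change after depletion was -5.03. Rspo3 was at 15.0, 13.1 and 9.73 CPM in depleted RPF, at 4.96, 10.4 and 4.43 CPM in steady-state RPF, and at 31.5, 16.6 and 28.3 CPM in FRC. It was 3.86-fold lower in steady-state RPF than in FRC (edgeR adjusted p = 0.00995), and the depleted and steady-state groups overlapped (log2 fold change 0.93, 95% interval -0.09 to 1.96, edgeR adjusted p = 0.158). Rspo3 made up 81.4% to 97.4% of the summed R-spondin level per kilobase in depleted RPF, while Rspo1 made up 56.2% to 77.0% in steady-state RPF and 84.8% to 92.1% in FRC.

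Of the R-spondin receptors, Lgr6 marked steady-state RPF. Lgr6 (ENSMUSG00000042793, chromosome 1, 134983301 to 135105276, mm10) was at 1.69, 1.38 and 2.68 CPM in depleted RPF, at 85.0, 81.3 and 57.9 CPM in steady-state RPF, and at 0.0607, 0.0682 and 0 CPM in FRC. Each group stood clear of the others. The fall after depletion was 5.28 on the log2 scale (log2 fold change -5.28, SE 0.45, edgeR adjusted p = 0.000102), and the level in steady-state RPF was 1739-fold that of FRC, where 4 counts were found in all (log2 fold change 10.69, SE 0.63, edgeR adjusted p = 4.82e-06). Both calls held without any 1 library, at log2 fold changes of -5.61 to -5.09 and 10.12 to 11.13. Lgr4, the other receptor gene, was at 20.8, 20.9 and 20.8 CPM in depleted RPF, at 23.5, 18.1 and 17.0 CPM in steady-state RPF, and at 32.6, 24.9 and 14.7 CPM in FRC. Its groups overlapped (95% interval of the log2 fold change after depletion -0.65 to 0.83, edgeR adjusted p = 0.885; RPF against FRC -1.04 to 0.44, edgeR adjusted p = 0.534). Per kilobase, Lgr6 held 77.6% to 82.1% of the summed Lgr level in steady-state RPF, and Lgr4 held 88.4% to 93.7% in depleted RPF and at least 99.7% in FRC.

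Among the Frizzled receptors, which bind Wnt directly, Fzd1 led in every library. Fzd1 (ENSMUSG00000044674, chromosome 5, 4753839 to 4758035) was at 726, 590 and 521 CPM in depleted RPF, at 648, 718 and 631 CPM in steady-state RPF, and at 92.0, 141 and 97.8 CPM in FRC. The RPF groups overlapped (log2 fold change -0.12, 95% interval -0.57 to 0.33, edgeR adjusted p = 0.716), and steady-state RPF lay 6.03-fold above FRC (log2 fold change 2.59, SE 0.20, edgeR adjusted p = 1.91e-05). It made up 77.5% to 79.1% of the summed Frizzled level per kilobase in depleted RPF, 80.7% to 86.0% in steady-state RPF and 34.2% to 46.1% in FRC. FRC thus spread their Frizzled mRNA over more genes.

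Fzd4 (ENSMUSG00000049791, chromosome 7, 89404355 to 89413134), the receptor of the ligand Norrin as well as of Wnt, was at 213, 159 and 113 CPM in depleted RPF, at 32.5, 29.2 and 23.6 CPM in steady-state RPF, and at 81.8, 62.1 and 93.9 CPM in FRC. All depleted libraries lay above all others, and steady-state RPF lay below FRC. It rose 5.68-fold after depletion (log2 fold change 2.50, SE 0.26, edgeR adjusted p = 0.000287) and was 2.79-fold lower in steady-state RPF than in FRC (edgeR adjusted p = 0.00279). Its share of the Frizzled sum per kilobase was 10.7% to 14.5% in depleted RPF, 1.94% to 2.53% in steady-state RPF and 12.7% to 22.1% in FRC. Endothelial and mural cells were read by their markers. The sum of 8 endothelial markers was at 14.3 to 25.6 CPM in depleted RPF and 34.8 to 63.8 CPM in steady-state RPF. Of the 8, 6 were detected in depleted and 7 in steady-state RPF. Lyve1 was at 0 counts in both RPF groups. Emcn was at 0 counts after depletion and at 1.72, 0.0197 and 0 CPM at steady state. Stab2 was lower in every depleted library, while Pecam1, Cdh5, Prox1, Kdr and Tie1 overlapped. Tie1, for 1, was at 5.51 to 10.7 CPM in depleted and 5.34 to 14.8 CPM in steady-state RPF. The mural marker Mcam was at 191 to 226 CPM in depleted RPF and 12.6 to 17.9 CPM in steady-state RPF. Of the other mural markers, Des and Notch3 were also higher in every depleted library, Cnn1 was lower, and Myh11, Rgs5 and Cspg4 overlapped. The part of endothelial and mural cells in the change of Fzd4 was not tested.

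Fzd8 went the other way. It was at 25.5, 30.0 and 36.6 CPM in depleted RPF, at 79.2, 56.1 and 68.0 CPM in steady-state RPF, and at 22.2, 28.8 and 19.2 CPM in FRC, with steady-state RPF above both other groups. It fell 2.21-fold after depletion (edgeR adjusted p = 0.00822) and was 2.90-fold higher in steady-state RPF than in FRC (edgeR adjusted p = 0.00139). Fzd7 was at 9.45, 12.9 and 6.25 CPM in depleted RPF, at 19.4, 16.2 and 18.3 CPM in steady-state RPF, and at 43.8, 50.2 and 32.9 CPM in FRC. Steady-state RPF was 2.35-fold below FRC (edgeR adjusted p = 0.016), a call that was lost without steady-state RPF replicate 2, steady-state RPF replicate 3 or FRC replicate 2, at edgeR adjusted p values of 0.0631, 0.0532 and 0.0507. After depletion the libraries lay below those at steady state without passing the test in edgeR (log2 fold change -0.91, adjusted p = 0.062). DESeq2 gave an adjusted p of 0.0166, and edgeR 0.0448 with upper quartile scaling and 0.036 without depleted replicate 2.

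Fzd2 and Fzd10 were Frizzled genes of FRC. Fzd2 was at 2.33, 1.70 and 2.81 CPM in depleted RPF, at 3.13, 4.11 and 3.70 CPM in steady-state RPF, and at 17.1, 15.1 and 19.6 CPM in FRC. It was 4.73-fold lower in steady-state RPF than in FRC (edgeR adjusted p = 0.00344) and was not called after depletion (edgeR adjusted p = 0.275). Fzd10 had 0 counts in all 6 RPF libraries and was at 12.6, 9.62 and 10.2 CPM in FRC, so that steady-state RPF was at least 463-fold lower, with its 0 counts set to 3 for the whole group (edgeR adjusted p = 0.00231). Fzd3 was at 8.50, 17.2 and 12.2 CPM in depleted RPF, at 15.5, 8.77 and 11.3 CPM in steady-state RPF, and at 11.3, 14.3 and 6.26 CPM in FRC, and its groups overlapped throughout. Fzd5 was at 1.46 to 17.0 CPM over the 9 libraries and was not called either. Fzd9 was at 4.77, 2.56 and 3.03 CPM in depleted RPF and at 0.0639, 0.0592 and 0.165 CPM in steady-state RPF, with 397 and 11 counts in all. The groups did not overlap, yet the edgeR adjusted p was 0.0841, against 0.00534 in DESeq2 and 0.0114 in limma-voom. In edgeR it was 0.00771 with the RPF groups alone and 0.0462 with the filter of 1 CPM. Without FRC replicate 2 or 3 it was 0.0212 and 0.0411, and without any 1 RPF library 0.14 to 0.226. In FRC, Fzd9 was at 0.0304, 1.02 and 0 CPM.

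**Figure D3:**
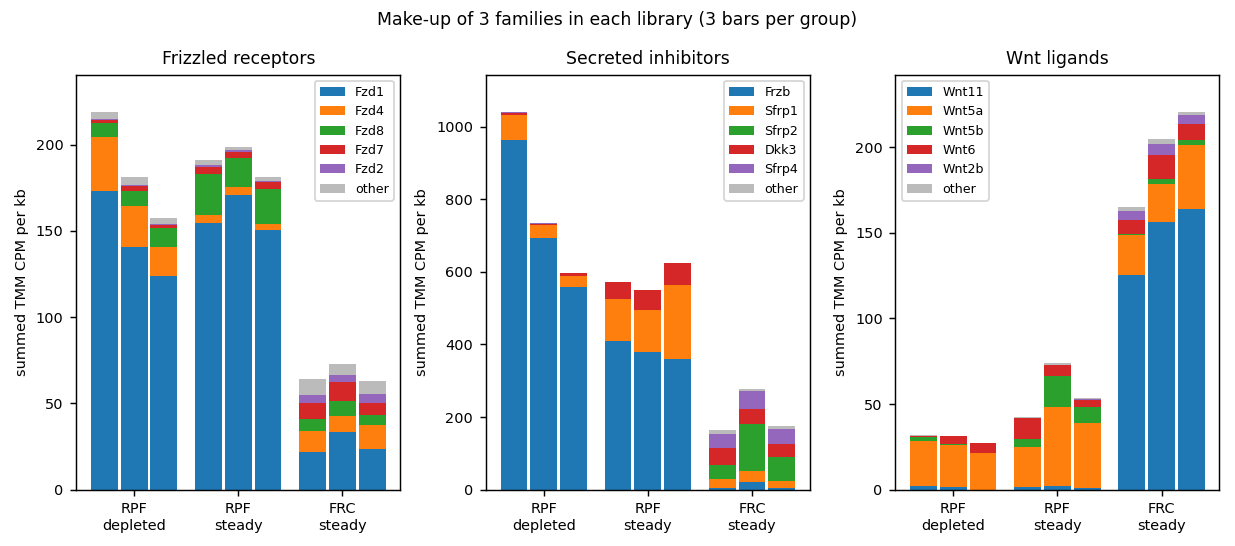
Summed TMM CPM per kilobase of the Frizzled receptors, secreted inhibitors and Wnt ligands in each library (3 bars per group), split by gene, with the 5 genes of highest level in each family named. Fzd1 fills most of the Frizzled bars in RPF, Frzb takes 92.7% to 94.3% of the inhibitor bars in depleted and 57.9% to 71.5% in steady-state RPF, and Wnt11 fills most of the ligand bars in FRC.

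The co-receptor genes Lrp5 and Lrp6 were present in all groups. Lrp6 was at 36.4, 28.9 and 35.3 CPM in depleted RPF, at 44.4, 57.0 and 33.5 CPM in steady-state RPF, and at 87.2, 97.3 and 65.0 CPM in FRC. It was 1.85-fold lower in steady-state RPF than in FRC (edgeR adjusted p = 0.024). Without steady-state RPF replicate 1 or 3, or FRC replicate 1 or 2, that edgeR adjusted p was 0.0759, 0.0809, 0.0621 and 0.0742, and it was 0.058 with these groups alone in the fit. Lrp5 was at 54.7, 47.4 and 34.5 CPM in depleted RPF, at 74.1, 70.6 and 99.2 CPM in steady-state RPF, and at 46.8, 61.0 and 87.1 CPM in FRC. Depleted libraries lay below steady-state RPF libraries, at an edgeR adjusted p of 0.0585 (log2 fold change -0.84, 95% interval -1.50 to -0.17). Lrp5 was called in 9 of 18 alternatives, with adjusted p values of 0.0129 to 0.186 over all of them. Among the 9 were DESeq2 (adjusted p = 0.0129), limma-voom (adjusted p = 0.0346) and edgeR with the RPF groups alone (adjusted p = 0.0284).

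Among the secreted inhibitors was Frzb, the highest member in RPF. Frzb (ENSMUSG00000027004, chromosome 2, 80411970 to 80447625), also known as Sfrp3, was at 1918, 1378 and 1111 CPM in depleted RPF, at 816, 754 and 719 CPM in steady-state RPF, and at 8.62, 43.4 and 11.8 CPM in FRC. Steady-state RPF was 35.9-fold above FRC (log2 fold change 5.17, SE 0.62, edgeR adjusted p = 0.000315), and the log2 fold change was 6.22 without FRC replicate 2. All 3 depleted libraries lay above the steady-state RPF libraries, 1.93-fold on average, but the test did not pass (log2 fold change 0.94, 95% interval -0.32 to 2.21, edgeR adjusted p = 0.249). The adjusted p was 0.0156 without FRC replicate 2, in which Frzb was highest among FRC, 0.00977 in edgeR with the RPF groups alone and 0.00965 in limma-voom. Per kilobase, Frzb was the highest of the 40 genes in both RPF groups, at 738 ± 207 CPM per kb in depleted and 384 ± 24.7 CPM per kb in steady-state RPF, and ranked 14 in FRC at 10.7 ± 9.65 CPM per kb.

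Sfrp1 (ENSMUSG00000031548) was at 297, 154 and 132 CPM in depleted RPF, at 508, 503 and 891 CPM in steady-state RPF, and at 108, 131 and 79.6 CPM in FRC. It fell 3.26-fold after depletion (log2 fold change -1.71, SE 0.36, edgeR adjusted p = 0.0096), and steady-state RPF was 5.97-fold above FRC (log2 fold change 2.58, SE 0.37, edgeR adjusted p = 0.000959). Steady-state RPF stood above both other groups without overlap. The ratio of Frzb to Sfrp1, per kilobase, was 14.2 to 19.6 in depleted RPF, 1.77 to 3.53 in steady-state RPF and 0.176 to 0.725 in FRC.

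Dkk3 (ENSMUSG00000030772, chromosome 7, 112116017 to 112159057), a divergent Dickkopf family member whose part in Wnt signalling is less settled, was at 19.0, 18.0 and 32.3 CPM in depleted RPF, at 158, 187 and 198 CPM in steady-state RPF, and at 159, 142 and 121 CPM in FRC. Every depleted library was below every other library. It fell 7.84-fold after depletion (log2 fold change -2.97, SE 0.25, edgeR adjusted p = 9.35e-05), while steady-state RPF and FRC overlapped (log2 fold change 0.37, 95% interval -0.19 to 0.93, edgeR adjusted p = 0.293).

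Sfrp2, Sfrp4 and Dkk2 were inhibitor genes of FRC. Sfrp2 was at 0.661, 0.0270 and 0 CPM in depleted RPF, at 0, 0.0395 and 0.0331 CPM in steady-state RPF, and at 23.4, 77.2 and 39.5 CPM in FRC. Sfrp4 was at 1.52, 1.78 and 0 CPM in depleted RPF, at 0.0213, 0.0395 and 0 CPM in steady-state RPF, and at 57.2, 72.6 and 60.7 CPM in FRC. Dkk2, which inhibits through Lrp5 and Lrp6, was at 0, 0 and 0.179 CPM in depleted RPF, at 0, 0 and 0.0331 CPM in steady-state RPF, and at 29.0, 21.9 and 26.2 CPM in FRC. All 3 were thus near 0 in RPF at steady state, with 3, 3 and 1 counts in all. Steady-state RPF was 1939-fold below FRC for Sfrp2 (95% counting interval 663 to 9405), 2690-fold for Sfrp4 (920 to 13049) and 3308-fold for Dkk2 (593 to 130710), with edgeR adjusted p values of 0.0013, 0.000714 and 0.000784. Their sizes rest on those few counts, and leaving out 1 steady-state RPF library moved the log2 fold change of Dkk2 to -12.96 (replicate 3, which held its count) against -11.12, that of Sfrp4 to -11.93 (replicate 2) against -11.23, and that of Sfrp2 to -10.17 or -11.43 (replicates 1 and 2) against -10.76.

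Sfrp4 was the second gene called higher after depletion, with 119 counts in depleted and 3 counts in steady-state RPF, which is 43.5-fold higher (95% counting interval 14.5 to 214, edgeR adjusted p = 0.0278). The counts came from depleted replicates 1 and 2, with 0 counts in depleted replicate 3, so the groups overlapped. The edgeR adjusted p was 0.0715 and 0.0771 without depleted replicate 1 or 2, 0.0935, 0.0869 and 0.0903 without steady-state RPF replicate 1, 2 or 3, and limma-voom gave an adjusted p of 0.334. Without depleted replicate 3 the log2 fold change was 5.96, against 5.38 with it. Depleted replicate 3 also held the fewest counts of Wnt11 and Wnt5b. The 8 lymph node FRC markers, all detected in each group, summed to 336 to 430 CPM in depleted RPF, 253 to 299 CPM in steady-state RPF and 2958 to 3384 CPM in FRC. Within that list Tnfsf11 and Cxcl13 were higher in all 3 depleted than in all 3 steady-state RPF libraries, Il7 was lower in all 3, and Ccl21a overlapped. The part of such cells in the counts of Sfrp4 was not tested.

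Axin2, a direct target and feedback inhibitor of beta-catenin signalling, was low everywhere. It was at 1.72, 1.51 and 1.79 CPM in depleted RPF, at 1.06, 1.82 and 0.695 CPM in steady-state RPF, and at 2.46, 1.06 and 0.298 CPM in FRC. The groups overlapped, and neither comparison passed the test (log2 fold change 0.49, 95% interval -1.96 to 2.93, edgeR adjusted p = 0.799 for depletion; -0.09, interval -2.53 to 2.35, edgeR adjusted p = 0.962 for RPF against FRC). With these 3 libraries per group, differences anywhere within those intervals remain compatible with the data.

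**Figure D4:**
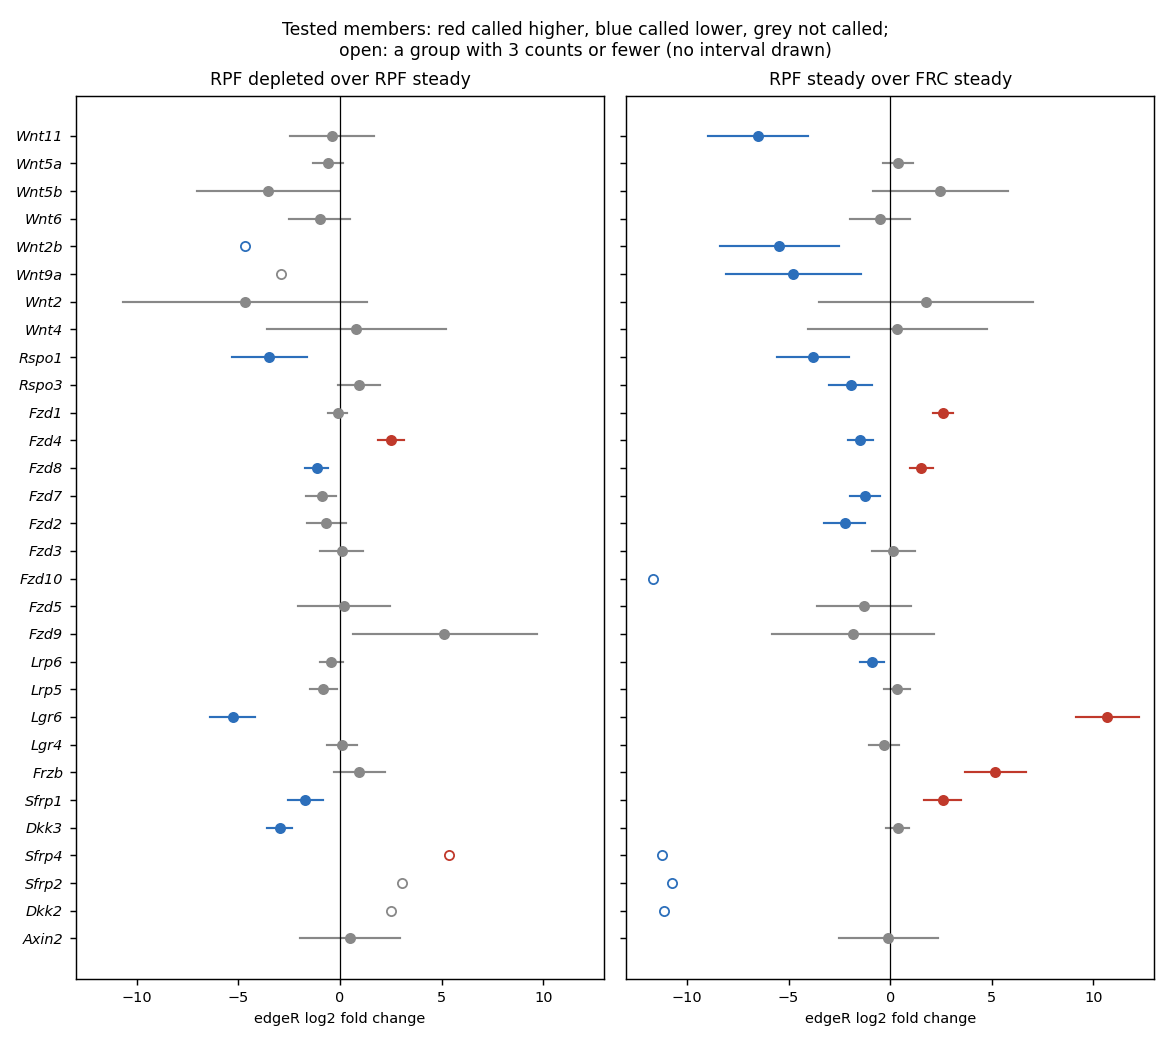
edgeR log2 fold change of each tested gene for depleted over steady-state RPF (left) and steady-state RPF over FRC (right), with approximate 95% intervals as lines. Red points were called higher, blue points lower and grey points not called; open points have a group with 3 counts or fewer and carry no interval, and Fzd10 has no point on the left because both groups had 0 counts. Lgr6 stands at -5.28 on the left and 10.69 on the right.

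The calls of the 2 comparisons, set side by side for single genes, fell into a few patterns. Lgr6, Sfrp1 and Fzd8 were higher in steady-state RPF than in FRC and lower in depleted RPF. Fzd4 and Sfrp4 were lower in steady-state RPF than in FRC and higher in depleted RPF, and Rspo1 and Wnt2b were lower in both. Dkk3 was called after depletion but not between tissues. Since both comparisons use the steady-state RPF libraries, with opposite signs, no test was made of how these calls go together.

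Genes of other cell types also differed between the RPF groups. Of 13 red pulp macrophage markers, 9 were detected in depleted and 13 in steady-state RPF, with summed levels of 80.8 to 120 CPM and 298 to 361 CPM, and Adgre1, C1qa, Cd5l and Fcgr1 at 0 counts after depletion. Most of the depleted sum was Mertk, at 74.5 to 103 CPM in depleted and 69.0 to 107 CPM in steady-state RPF, and the other 12 markers summed to 1.41 to 17.1 CPM in depleted and 223 to 254 CPM in steady-state RPF. The sum of the 7 mural and smooth muscle markers, all detected, was at 1810 to 2237 CPM in depleted and 709 to 1072 CPM in steady-state RPF, most of it Des, at 1470 to 1781 CPM and 578 to 903 CPM. Without Des the sum was at 340 to 515 CPM in depleted and 131 to 170 CPM in steady-state RPF, with Mcam higher, Cnn1 lower and Rgs5 at no more than 0.197 CPM in both groups. The 6 adventitial fibroblast markers, all detected, summed to 77.3 to 157 CPM in depleted and 354 to 511 CPM in steady-state RPF, most of it Ly6c1. Of the 8 mesothelial markers, 3 were detected in depleted and 7 in steady-state RPF. Their sums were 1.21 to 7.29 CPM and 10.3 to 28.9 CPM, most of it Gpm6a. Krt18, Krt19, Lrrn4, Msln and Upk1b were at 0 counts after depletion, but at steady state Lrrn4, Msln and Upk1b came from replicate 1 alone. Krt8 was at 0 counts at steady state and was detected after depletion. B cell markers (6) summed to 18.9 to 42.8 CPM in depleted and 102 to 232 CPM in steady-state RPF. Megakaryocyte and platelet markers (4) summed to 37.5 to 47.8 CPM and 20.4 to 24.3 CPM. Of these, Pf4 was higher in every depleted library, Ppbp was lower, and Gp9 and Itga2b overlapped. The 12 fibroblast and RPF markers themselves summed to 23781 to 29439 CPM and 35888 to 39196 CPM. Most of that was Coch, at 15768 to 20162 CPM and 27685 to 31704 CPM. Tlx1, Tcf21, Wt1, Col1a1, Col3a1 and Vcam1 were also lower in every depleted library, Csf1 and Pdgfrb were higher, and Pdgfra, Nkx2-5 and Pdpn overlapped. The part of these cell types in the changes of the Wnt genes was not tested. Y-linked genes had 1 count in steady-state RPF replicate 1 and 0 counts in FRC replicate 1, against 2285 or more in the other 7 libraries. Steady-state RPF and FRC libraries may come from the same mice, and the test between them treats all libraries as independent. With a term for Y-linked reads in the fit, 1 and 5 members were called higher in the 2 comparisons. The calls of Sfrp4 and Wnt2b after depletion were then lost (edgeR adjusted p = 0.0557 and 0.0637).

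Further genes of the pathway were read from 4 lists. Of the list of Wnt secretion and extracellular modulators, 14 genes were tested, and 3 were higher and 5 lower in depleted RPF (57.1% called, against 21.0% of all genes), with a median log2 fold change of -0.87 against -0.09 for all genes. Porcn, which attaches the lipid to Wnt proteins, was 3.77-fold lower (edgeR adjusted p = 0.00853), and Wls, which carries them to the cell surface, was 1.73-fold lower, at 165 CPM in depleted and 285 CPM in steady-state RPF (edgeR adjusted p = 0.0149). Reck, a co-factor of Wnt7 reception, fell 2.40-fold (edgeR adjusted p = 0.000387), Tpbg and Gpc3 were the others lower, and Apcdd1, a membrane inhibitor of Wnt, rose 2.68-fold (edgeR adjusted p = 0.000587), with Gpc4 and Adgra2. In steady-state RPF against FRC, 3 of the 14 were higher (Adgra2, Notum and Apcdd1) and 6 lower (Gpc3, Gpc4, Gpc6, Porcn, Tpbg and Sostdc1), which is 64.3% called against 25.9% of all genes. Gpc3, a glypican, was 34.5-fold lower in steady-state RPF (edgeR adjusted p = 2.98e-06) and Sostdc1, a secreted inhibitor of Wnt and BMP, was 631-fold lower (edgeR adjusted p = 0.000398). Sostdc1 was at 0.511, 0 and 0 CPM in steady-state RPF and passed the filter through FRC, while Notum was at 0 counts in FRC. The calls of Sostdc1 and Notum, and the share that includes them, are thus a description.

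Of 14 tested genes for other receptors, receptor turnover and planar polarity, 0 were higher and 1 was lower after depletion (7.14%, against 21.0% of all genes), namely Prickle2, which fell 2.78-fold (edgeR adjusted p = 0.00383). None was higher at an unadjusted p under 0.05 in edgeR either (0 genes), nor at an adjusted p in DESeq2 or limma-voom (0 genes each). In steady-state RPF against FRC, 3 of the 14 were called, all higher, which is 21.4% against 25.9% of all genes. Ptk7, a pseudokinase co-receptor, was 4.11-fold higher (edgeR adjusted p = 1.18e-05), Ror2, a Wnt5a receptor, 1.91-fold higher (edgeR adjusted p = 0.0211) and Daam2 3.05-fold higher. In that comparison 0 were lower in edgeR, DESeq2 or limma-voom, and at an unadjusted p under 0.05 it was 0 in edgeR and 1 in each of the other tools. Of 27 tested genes of beta-catenin signal transduction, 3 were higher (Csnk1a1, Dvl1 and Tle3) and 7 lower (Apc2, Bcl9, Ctnnbip1, Pygo1, Tcf7l2, Tle2 and Tle4) after depletion, or 37.0% against 21.0% of all genes. Tle2, a co-repressor of TCF factors, fell 8.75-fold and Apc2 6.41-fold (edgeR adjusted p = 0.000546 and 0.000653). In steady-state RPF against FRC, 7 of the 27 were higher and 4 lower, or 40.7% against 25.9% of all genes. Tcf7, a TCF/LEF factor, was 5.07-fold higher and Ctnnbip1, an inhibitor of beta-catenin, 5.61-fold higher (edgeR adjusted p = 0.000341 and 0.000566).

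Of 20 tested target and feedback genes, which hold Axin2, Tcf7, Notum and Apcdd1 as well, 4 were higher and 3 lower after depletion (35.0%, against 21.0% of all genes), with a median log2 fold change of 0.14. Bambi fell 4.29-fold to 99.1 CPM in depleted RPF, against 425 CPM in steady-state RPF (edgeR adjusted p = 4.04e-05), and Nkd1, a feedback inhibitor acting on Dishevelled, fell 2.12-fold, at 163 and 345 CPM (edgeR adjusted p = 0.0013). Its relative Nkd2 rose 2.70-fold (edgeR adjusted p = 0.00599), and Myc, which many other signals also induce, rose 4.80-fold (edgeR adjusted p = 0.000301). Cyr61 and Apcdd1 rose and Dact3 fell. In steady-state RPF against FRC, 5 were higher and 3 lower, or 40.0% against 25.9% of all genes. Nkd1 was 5.87-fold higher (edgeR adjusted p = 7.52e-06) and Myc 32.5-fold lower (edgeR adjusted p = 3.62e-06). Notum, a secreted enzyme that inactivates Wnt, was at 0.316, 0 and 0.0669 CPM in depleted RPF and at 2.87, 4.78 and 2.48 CPM in steady-state RPF. Every depleted library lay below every steady-state RPF library, but edgeR did not call it (adjusted p = 0.0976). In FRC, Notum was at 0 counts, set to 3 for the whole group, so that steady-state RPF was at least 113-fold higher (edgeR adjusted p = 0.0171). It passed the filter without FRC, so this call and the share that includes it are a description. The target genes thus went both ways in both comparisons.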

How the data were processed

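PolyA RNA of 9 libraries, 3 per group and 2 mice per library, was used. The authors deposited raw read counts per Ensembl gene, per the file headers, and the submitters' processing notes name the build mm10 and the tools STAR 2.5.3a, HTSeq 0.6.1p1, cutadapt 1.10 and Bowtie2 2.2.8. No source used here gives the strand setting or the annotation release. The deposited median transcript length, another column of the authors, was used for levels per kilobase. The 24 further per-sample columns (2 other libraries and normalized values) and the authors' fold changes were not used. FRC and steady-state RPF libraries may share untreated mice, because both organs could be taken from 1 animal, and no pairing is given.

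Genes were filtered with filterByExpr, scaled by TMM and fitted by edgeR 4.0.16 (R 4.3.3), using 1 term per group, the robust quasi-likelihood test and Benjamini-Hochberg adjustment over 15103 genes, two-sided, called under 0.05. SE is the log2 fold change divided by the root of F, and 95% intervals use it with 6 degrees of freedom. Folds are ratios of mean CPM. Against 0 counts a floor of 3 counts over the group was used, and with 1 to 3 counts the ratio has an exact counting interval. Both cover counting error only, and p-values measure the spread between pooled libraries. The model was tested on simulated data. Alternatives were RLE and upper quartile scaling, 2 other filters, DESeq2 1.42.0, limma-voom (limma 3.58.1), no robust prior, the compared groups alone, a term for Y-linked reads, and leaving out each library. Every member was named; values per library were given for called members at 1 CPM or more and all members at 10 CPM or more. Of the wider lists, up to 3 called genes per comparison were given with p-values, with Porcn, Wls, Nkd1, Nkd2 and Notum added after their values were seen. The members, lists and tests were chosen with earlier results of these data known. Promoters are RefSeq GRCm38.p6, and figures used matplotlib 3.10.9.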

Additional observations from a re-analysis of the deposited data

How the results depend on the processing

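No paired analysis was possible because the labels give the groups no shared replicate numbers. Of the tested members, 15 of 29 kept direction and call under every alternative run for depletion (Fzd10, at 0 counts in both groups, not counted), and 21 of 30 for steady-state RPF against FRC. The number of members called higher after depletion, 2, was 1 with a term for Y-linked reads and 1 to 4 when 1 library was left out. The number of all genes called lower after depletion, 1505, was 2312 in DESeq2 and 968 to 1561 without 1 library. Without division by length, the 5 highest members shared 4 genes with those per kilobase in depleted RPF, 4 in steady-state RPF and 2 in FRC. No called member changed sign. Among uncalled members after depletion, Fzd5 turned to -0.02 with the Y-linked term, and leaving out 1 library gave log2 fold changes of -0.40 to 0.61 for Fzd5, -0.20 to 0.33 for Fzd3, -0.01 to 0.25 for Lgr4, -1.78 to 4.38 for Dkk2, -0.78 to 3.74 for Sfrp2 and -0.84 to 0.21 for Wnt11. Between RPF and FRC, Axin2 turned to 0.05 with upper quartile scaling, 0.32 in limma-voom and 0.21 with the Y-linked term, Fzd9 to 0.14 and Wnt4 to -0.87 in limma-voom, and leaving out 1 library gave -0.55 to 0.82 for Axin2, -0.10 to 0.44 for Fzd3, -1.78 to 0.28 for Fzd5, -2.44 to 2.42 for Fzd9 and -1.90 to 2.23 for Wnt4. Upper quartile scaling moved the median of all genes by 0.16 on the log2 scale between RPF and FRC. The causes were not tested. With 3 libraries per group, members below about 1 CPM rest on few counts.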
